A study of Mus musculus with 2 samples.

Results

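Nuclear genes for the subunits of the oxidative phosphorylation machinery were followed in the spleen 30 h after acetaminophen (APAP) overdosing. Members were taken from the table of splenic gene counts by type and name alone, with no use of their values, as every protein-coding row whose symbol begins with Nduf followed by a, b, c, s or v, with Uqcr, with Cox and a digit from 4 to 8, or with Atp5, plus the 4 genes Sdha to Sdhd. This gave 93 members among 22791 rows, of which 15293 were typed as protein-coding. By name they fell into 7 core and 32 accessory genes of complex I, 8 assembly factors of complex I (Ndufaf1 to Ndufaf8, which are not subunits but match the rule), 4 genes of complex II, 8 of complex III, 17 of complex IV and 17 of the ATP synthase. The genes Cox8c and Cox7b2 match the rule by name and were not analysed here, and the gene annotated as Atp5s carries the symbol Dmac2l in the table and is counted with the related proteins of the ATP synthase.

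Male C57BL/6J mice aged 9 to 11 weeks were fasted for 10 h and then given 1 intraperitoneal injection of either 0.9% NaCl as vehicle (ctrl) or APAP at 300 mg/kg dissolved in the same vehicle. Fasting, injection and vehicle were thus shared by both groups. Splenic RNA of 5 ctrl mice and of 11 APAP mice was pooled in equal shares within each group, and each pool gave 1 library by 3′mRNA sequencing (MACE), in which only the end of a transcript next to the poly(A) tail is read, so that a count does not scale with transcript length. The comparison asks how splenic gene expression stood when liver injury passes into resolution. With 1 library per group no difference has a replicate check, no p-value was computed, and all intervals below are 95% intervals that cover counting error only, not the spread between mice.

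Oxidative phosphorylation takes place in the inner mitochondrial membrane. Complexes I and II feed electrons from NADH and succinate into ubiquinone, complex III hands them to cytochrome c, complex IV passes them to oxygen, and the ATP synthase uses the proton gradient built by complexes I, III and IV to make ATP. Most subunits are encoded in the nucleus and imported, whereas a small set of hydrophobic core subunits is encoded by mitochondrial DNA, and the ring of c subunits in the ATP synthase is encoded by several nuclear genes that give the same mature protein.

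That last feature can be read directly from the coding sequences. For Atp5g1 on chromosome 11, Atp5g2 on chromosome 15 and Atp5g3 on chromosome 2 the longest open frame from an ATG to a stop codon was taken. These frames gave 136, 190 and 141 residues. Their last 78 residues are identical, while the 58, 112 and 63 residues before them, which include the targeting sequence, are not. The annotated protein start was not used, so the length before the shared stretch may exceed that of the true precursor. The 234 coding bases of the shared stretch are shown to compare the 3 genes base by base. They were read 5′ to 3′ from GENCODE M21 transcripts, and capitals mark bases that are not the same in all of the genes.
Atp5g1: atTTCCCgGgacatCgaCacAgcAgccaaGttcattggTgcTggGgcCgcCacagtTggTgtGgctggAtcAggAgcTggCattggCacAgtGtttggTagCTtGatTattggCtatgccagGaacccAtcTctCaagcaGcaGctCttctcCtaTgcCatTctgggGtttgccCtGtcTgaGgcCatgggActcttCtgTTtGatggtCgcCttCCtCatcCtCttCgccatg
Atp5g2: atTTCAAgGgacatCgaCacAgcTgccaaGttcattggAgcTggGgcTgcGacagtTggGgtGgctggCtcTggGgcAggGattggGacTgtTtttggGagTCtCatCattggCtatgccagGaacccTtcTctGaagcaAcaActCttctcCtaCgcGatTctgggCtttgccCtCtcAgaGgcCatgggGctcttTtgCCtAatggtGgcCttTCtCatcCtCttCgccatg
Atp5g3: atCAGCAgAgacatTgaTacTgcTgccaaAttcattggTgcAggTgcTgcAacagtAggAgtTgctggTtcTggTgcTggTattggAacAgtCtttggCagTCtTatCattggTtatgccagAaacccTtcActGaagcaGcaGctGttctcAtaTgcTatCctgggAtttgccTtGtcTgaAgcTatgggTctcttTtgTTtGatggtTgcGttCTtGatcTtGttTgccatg
Of the 234 positions 63 differed in at least 1 of the genes, and 55 of these were at the last base of a codon. Atp5g1 differed from Atp5g3 at 50 bases (78.6% identity) and Atp5g2 at 53 (77.4%), so that the coding stretches of the trio can be told apart. The counts come from transcript ends, however, and those of Atp5g1 and Atp5g2 have near-identical pseudogene copies, as given below.

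Some promoters of the members hold letters known from genes of this pathway, and about as many hold none of those searched. NRF1, GABP (an ETS factor) and YY1 are transcription factors whose binding motifs are known from promoters of respiratory chain genes. RefSeq promoters of the build GRCm38.p6 (250 bases before to 50 after the start) were found for 75 of the 93 members, and both strands were searched for 3 strings of letters, of which none contains another. The NRF1 letters (GCGCA and GCGC with any base between them) stood in 18 member promoters (24.0%), against 4.78% of all 27025 promoters and 10.8% of the 8938 promoters of protein-coding genes with at least 20 counts in these libraries. The ETS letters CCGGAAG stood in 18 (24.0%, against 9.12% and 18.8%), and the YY1 letters AAGATGGCG in 7 (9.33%, against 1.49% and 3.38%). In all 7 the YY1 letters lay after the start, and some NRF1 and ETS letters did so too. Any of the 3 was present in 37 member promoters (49.3%, against 14.0% and 29.5%).

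To show the letters in place, upstream stretches of Ndufs5 and Ndufb4 (accessory genes of complex I) and of Uqcr11 (complex III) are given with the motif letters in capitals, as members in whose stretch no exon is annotated. They are all on the minus strand of GRCm38.p6, are written 5′ to 3′ in the direction of the gene, and end before the outermost annotated start. The searched promoter of Ndufb4 holds the NRF1 letters at 3 places, of which 1 lies in the stretch shown.
Ndufs5, chr4:123718203-123718436, NRF1: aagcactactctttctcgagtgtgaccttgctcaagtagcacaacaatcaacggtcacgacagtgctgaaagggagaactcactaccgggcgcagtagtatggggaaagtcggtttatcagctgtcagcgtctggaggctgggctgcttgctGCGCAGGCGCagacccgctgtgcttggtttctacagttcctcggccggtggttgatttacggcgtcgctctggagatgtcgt
Ndufb4, chr16:37654454-37654618, NRF1: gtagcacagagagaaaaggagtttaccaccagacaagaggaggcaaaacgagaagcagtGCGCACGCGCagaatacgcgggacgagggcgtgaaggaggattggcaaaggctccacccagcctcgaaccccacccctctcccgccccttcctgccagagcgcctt
Uqcr11, chr10:80406831-80407071, ETS: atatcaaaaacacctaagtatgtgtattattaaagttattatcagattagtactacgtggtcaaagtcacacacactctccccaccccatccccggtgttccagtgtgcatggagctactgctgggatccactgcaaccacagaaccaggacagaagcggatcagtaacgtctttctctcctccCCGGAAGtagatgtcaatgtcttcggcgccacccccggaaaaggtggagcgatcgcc
Splitting the members with at least 20 counts by these letters gave a median APAP/ctrl ratio of 1.02 for the 18 members with the NRF1 letters and of 1.09 for the 55 without. The medians were 1.07 (18 members) and 1.09 (55) for the ETS letters, and 0.997 (7) and 1.09 (66) for the YY1 letters. The letters describe sequence only, and a bound factor was not measured.

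The ctrl library held 2735788 counts and the APAP library 2890947, and the floor of 3 counts lay at 1.10 counts per 1000000 (CPM) in ctrl and 1.04 CPM in APAP. The libraries differed in markers of cell types. The 23 genes of a pancreatic acinar list summed to 64461 CPM in ctrl and 19660 CPM in APAP (scaled ratio 0.290, lower in 23 of 23), so that acinar transcripts were present in both pools of a tissue labelled spleen. The 15 neutrophil markers summed to 1529 and 3917 CPM (ratio 2.44, higher in 15 of 15), the 12 markers of red pulp macrophages to 4884 and 7067 CPM (1.38, higher in 12 of 12), and the 15 erythroid markers to 53125 and 62214 CPM (1.11, higher in 11 of 15). Lymphocyte markers were lower, with summed ratios of 0.755 for T cell genes (lower in 13 of 14), 0.843 for B cell genes (11 of 11) and 0.720 for NK cell genes (8 of 9), and every one of these genes had counts in both libraries. Of 11 muscle genes only 4 had a row (23.0 and 19.7 CPM in sum), and 10 adipocyte genes summed to 239 and 132 CPM (ratio 0.526) and 12 hepatocyte genes to 387 and 231 CPM (ratio 0.569). The part of these lists in the results on the members was not tested.

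Members were a sizeable share of all counts, and that share was higher in APAP. They received 34074 counts in ctrl and 41021 in APAP, or 1.25% of all counts (1.23 to 1.26 by the Wilson method) and 1.42% (1.41 to 1.43). These totals hold the acinar transcripts, which took 6.45% of counts in ctrl and 1.97% in APAP. Scaled by totals the summed ratio of the members was 1.14, and by totals without the acinar list 1.09. Of the 93 members 89 had at least 20 counts over both libraries, with a median of 118 CPM in ctrl and 131 CPM in APAP. Their levels spanned 4.02 to 603 CPM in ctrl and 5.19 to 716 CPM in APAP, with Cox6a2 lowest and Atp5b highest in both. The remaining 4 were Cox4i2 (4 counts in ctrl and 8 in APAP), Cox7a1 (1 and 2), Cox8b (4 and 1) and Ndufa4l2 (8 and 7), and no ratio is given for them.

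**Figure D1:**
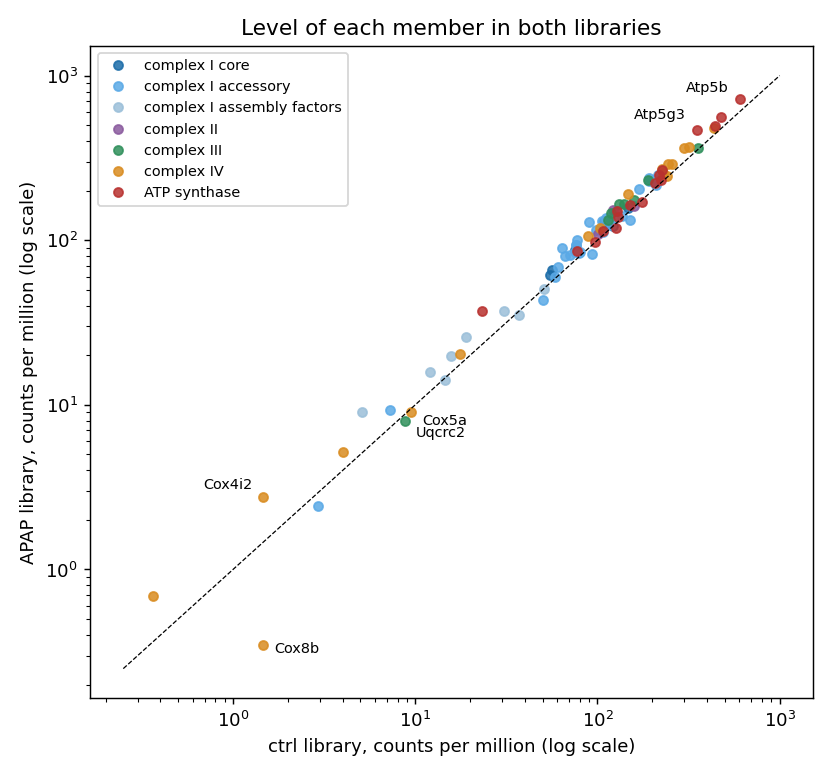
Level of each of the 93 members in the ctrl library (x axis) and the APAP library (y axis), in CPM on log scales. Each point is 1 gene coloured by respiratory complex and the dashed line marks equal levels; the points follow the line from Atp5b at 603 and 716 CPM down to genes at a few counts, where single points scatter.

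Transcripts of the respiratory chain were slightly and broadly more abundant in the APAP library, and none met a 2-fold difference. In the following, the ratio is the APAP count over the ctrl count after division by DESeq2 size factors (0.949 for ctrl and 1.05 for APAP), with an exact interval. The ratio was above 1 for 68 of the 89 members (76.4%), against 53.2% of the 12929 genes with at least 20 counts. The interval lay wholly above 1 for 22 members (24.7%, background 9.13%) and wholly below 1 for 1 member (1.12%, background 6.57%). No member was at least 2-fold higher with an interval excluding 1 (background 1.39%) and none at least 2-fold lower (background 1.68%). With the wider rule of a ratio beyond 3 over all rows, counts of 0 set to 1, no member was higher (background 2.4%) and 1 was lower, Cox8b on 4 counts in ctrl and 1 in APAP (background 3.74%). The median ratio of the members was 1.10, beside 1.02 over all genes, and their summed counts gave a ratio of 1.08 (1.07 to 1.10). In whole spleen, a change in the number of cells of a type and a change in RNA per cell cannot be told apart.

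Since intervals are narrower for genes with more counts, the same was looked at among genes with at least 200 counts. Of 77 such members 59 had a ratio above 1 (76.6%, background 54.2%). The interval lay above 1 for 21 (27.3%, background 14%) and below 1 for 1 (1.30%, background 9.29%).

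All of the complexes stood at nearly the same ratio. The summed counts gave 1.06 (0.993 to 1.13) for the core genes of complex I, 1.08 (1.05 to 1.11) for its accessory genes, 1.06 (0.943 to 1.20) for its assembly factors, 1.07 (0.994 to 1.15) for complex II, 1.08 (1.04 to 1.14) for complex III, 1.10 (1.06 to 1.13) for complex IV and 1.08 (1.06 to 1.11) for the ATP synthase. These intervals overlap one another, so that no complex stood apart at this depth. Accordingly, the make-up of the member counts, which needs no scaling between libraries, was close in both. The ATP synthase took 30.2% of member counts in ctrl (29.7 to 30.7) and 30.2% in APAP (29.8 to 30.6), complex IV 21.02% (20.6 to 21.5) and 21.3% (20.9 to 21.7), the accessory genes of complex I 28.0% (27.5 to 28.5) and 27.9% (27.5 to 28.4), and complex III 9.77% (9.46 to 10.1) and 9.78% (9.49 to 10.1). The smaller groups moved by at most 0.13 percentage points, from 5.43% to 5.30% for the core of complex I, from 4.09% to 4.03% for complex II and from 1.49% to 1.46% for the assembly factors.

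**Figure D2:**
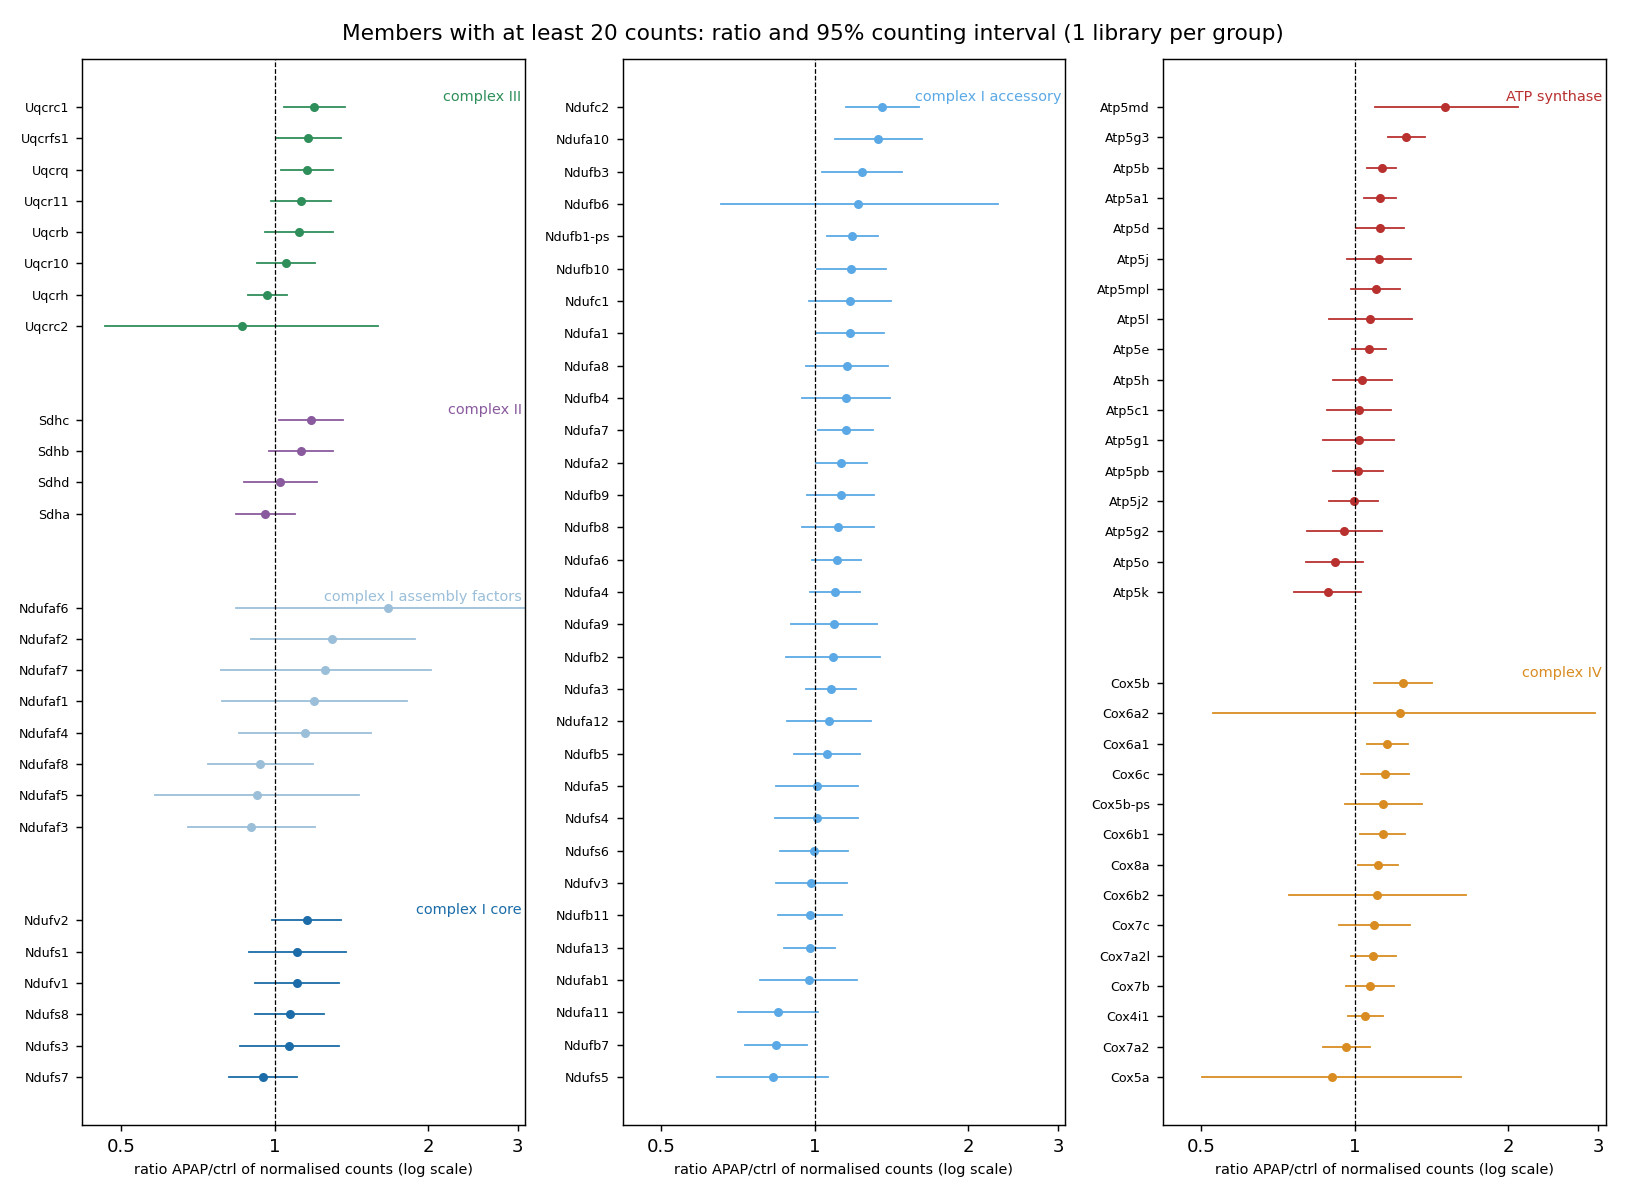
APAP/ctrl ratio of normalised counts (x axis, log scale) for the members with at least 20 counts, except 1 that is not shown, ordered within each complex, with points for the ratio, bars for the 95% counting interval and a dashed line at 1; the bar of Ndufaf6 runs to 3.46, past the axis. The 22 bars that clear the line on the right include Atp5md at 1.505 and Ndufc2 at 1.36, and Ndufb7 at 0.839 is the one on the left.

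Complex I oxidises NADH at the tip of its peripheral arm and reduces ubiquinone where that arm meets the membrane. Its 7 nuclear core genes, which carry the flavin and the iron-sulfur clusters, gave a median ratio of 1.07. Of these 6 were above 1 (85.7%, background 53.2%) and 1 below, and no interval excluded 1. Ndufs7, which holds the last iron-sulfur cluster before ubiquinone, had 335 and 353 counts and the lowest ratio of the group (0.948, 0.814 to 1.10). Ndufv2, part of the NADH-binding module, had 296 and 380 counts and the highest (1.16, 0.990 to 1.35). The core genes thus lay within counting error of each other.

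The accessory genes of complex I, which surround and stabilise the core, spanned ratios from 0.828 to 1.36. Of 31 with at least 20 counts, 23 were above 1 (74.2%, background 53.2%) and 8 below, with a median ratio of 1.10. The interval was above 1 for 8 (25.8%, background 9.13%) and below 1 for 1 (3.23%, background 6.57%). The most abundant were Ndufa6 (590 and 724 counts, ratio 1.10), Ndufa3 (570 and 683, ratio 1.08) and Ndufb1-ps (525 and 691, ratio 1.18, 1.06 to 1.33). The last is the mouse gene for subunit B1, which keeps a pseudogene-style symbol but is typed as protein-coding in the table. The highest ratio belonged to Ndufc2, a subunit of the membrane arm, with 247 counts in ctrl and 372 in APAP (1.36, 1.15 to 1.60). Ndufa10, also of the membrane arm, had 175 and 259 counts (1.33, 1.10 to 1.62), and Ndufb3 had 211 and 290 (1.24, 1.03 to 1.48). Smaller ratios with intervals above 1 were seen for Ndufb10 (1.18), Ndufa1 (1.17), Ndufa7 (1.15) and Ndufa2 (1.13).

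On the lower side, Ndufb7 was the member whose interval lay below 1, going from 414 to 386 counts (0.839, 0.729 to 0.966). Ndufs5 had 137 and 126 counts and the lowest ratio of all 89 members, but its interval included 1 (0.828, 0.645 to 1.06). Ndufb7 and Ndufs5 encode proteins with paired cysteine motifs that sit on the side of complex I facing the intermembrane space. Ndufa8 and Ndufb10 are of the same kind, and had 209 and 269 counts (1.16, 0.963 to 1.39) and 289 and 379 counts (1.18, 1.01 to 1.38). Among these genes only Ndufb7 had an interval below 1 and only Ndufb10 one above 1, while those of Ndufs5 and Ndufa8 included 1.

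The 8 assembly factors of complex I were the least abundant group, with a median of 17.4 CPM in ctrl and 22.8 CPM in APAP. Their median ratio was 1.17, 5 were above 1 (62.5%, background 53.2%) and 3 below, and no interval excluded 1. Ndufaf8 had 140 counts in ctrl and 146 in APAP (0.939, 0.739 to 1.19), Ndufaf3 had 101 in each library (0.900, 0.676 to 1.20) and Ndufaf4 had 84 and 107 (1.15, 0.853 to 1.54). Ndufaf6 had the highest ratio of the 89 members with at least 20 counts, on 14 and 26 counts, and its interval was wide (1.67, 0.841 to 3.46). Differences of this size were not detectable at this depth for these genes.

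Complex II is the succinate dehydrogenase of the citric acid cycle and the only complex of the chain with no subunit encoded in mitochondrial DNA. Sdhc, 1 of the membrane anchors that bind ubiquinone, had 335 counts in ctrl and 439 in APAP (1.18, 1.02 to 1.36). This was the only interval above 1 among the 4 genes (25%, background 9.13%). Sdhb, the iron-sulfur subunit, had 348 and 436 counts (1.13, 0.977 to 1.30). The other anchor, Sdhd, had 277 and 316 counts (1.03, 0.871 to 1.21), and the flavin-bearing catalytic subunit Sdha had 435 and 464 (0.960, 0.840 to 1.10). The intervals of the 4 genes overlap.

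In complex III, 6 of 8 genes were above 1 (75%, background 53.2%), and the median ratio was 1.12. The interval lay above 1 for 3 of the 8 (37.5%, background 9.13%). Uqcrc1, a large core protein on the matrix side, had 361 counts in ctrl and 480 in APAP (1.20, 1.04 to 1.38), the highest ratio of the group. Uqcrfs1, the Rieske iron-sulfur protein that takes electrons from ubiquinol, had 326 and 422 counts (1.17, 1.01 to 1.35), and the small subunit Uqcrq had 519 and 667 (1.16, 1.03 to 1.30). The most abundant gene, Uqcrh, which encodes the hinge protein next to cytochrome c1, had 970 and 1044 counts and an interval that included 1 (0.969, 0.887 to 1.06), and Uqcr10 had 434 and 508 (1.05, 0.925 to 1.20). Uqcrc2, the partner of Uqcrc1 in the core, had only 24 and 23 counts (0.863, 0.465 to 1.60), or 8.77 CPM in ctrl beside 132 CPM for Uqcrc1.

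In complex IV, the cytochrome c oxidase, 12 of 14 genes were above 1 (85.7%, background 53.2%), and the median ratio was 1.11. The interval lay above 1 for 5 of the 14 (35.7%, background 9.13%). Cox4i1, a subunit needed for assembly and for regulation by nucleotides, was the most abundant with 1195 counts in ctrl and 1392 in APAP (1.05, 0.970 to 1.13). Cox8a had 865 and 1066 counts (1.11, 1.01 to 1.21) and Cox6a1 had 814 and 1047 (1.16, 1.06 to 1.27). Cox5b, the zinc-binding subunit on the matrix side, had 400 and 553 counts and the highest ratio (1.24, 1.09 to 1.42). Cox6c (617 and 785 counts, 1.15, 1.03 to 1.27) and Cox6b1 (671 and 845 counts, 1.13, 1.02 to 1.26) completed the group with intervals above 1. Cox5a, which joins Cox5b and Cox4i1 around the mitochondrially encoded core, had 26 counts in each library (0.900, 0.502 to 1.61), far below its partners in level.

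The 3 members Uqcrc2, Cox5a and Ndufb6 (20 counts in ctrl and 27 in APAP) thus stood an order of magnitude below most subunits of their complexes, and were singled out after their values were seen. All of them have a gene annotated on the opposite strand within the last 500 bases of the transcript (Pdzd9, Gm26631 and Smim27). Whether reads were counted by strand is not given by the sources, and the part of these overlaps in the low counts was not tested. In all, 12 members have such a neighbour, among them genes with ordinary counts such as Ndufa3 (570 and 683), Ndufa2 (527 and 660), Ndufb1-ps (525 and 691), Ndufb2 (166 and 200) and Ndufs1 (155 and 191). The others, with fewer counts, are Ndufaf3 (101 and 101), Atp5md (64 and 107), Cox6a2 (11 and 15) and Ndufa4l2 (8 and 7).

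The ATP synthase genes had 10291 counts in ctrl and 12389 in APAP, fewer than the 11898 and 14229 of all complex I groups together. Of the 17 genes 13 were above 1 (76.5%, background 53.2%), with a median ratio of 1.07. Atp5b (chr10:128083273-128090391, plus strand, mm10) encodes the catalytic beta subunit and had the most counts of all members, 1651 in ctrl and 2070 in APAP (1.13, 1.06 to 1.20). Its partner in the catalytic head, the alpha subunit gene Atp5a1, had 1309 and 1630 counts (1.12, 1.04 to 1.21), so that both subunits of the head had nearly equal ratios. In the central stalk, Atp5d for the delta subunit had 617 and 768 counts (1.12, 1.01 to 1.25), Atp5e for epsilon had 1205 and 1429 (1.07, 0.988 to 1.15) and Atp5c1 for gamma had 354 and 401 (1.02, 0.881 to 1.18). In the peripheral stalk and the membrane part the values were mixed. Atp5o, the subunit that joins stalk and head, had 483 and 490 counts (0.913, 0.804 to 1.04), Atp5pb had 569 and 641 (1.01, 0.904 to 1.14), and Atp5k, which encodes the dimer-associated subunit e, had 348 and 342 and the lowest ratio of the group (0.884, 0.760 to 1.03).

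The highest ratio of the group, on few counts, was that of Atp5md, which encodes a small protein of the membrane part (chr19:47083464-47090647, minus strand). It had 64 counts in ctrl and 107 in APAP (1.505, 1.09 to 2.08). The gene Taf5 lies on the other strand at its 3′ end, and a stretch of 174 bases in the last 300 is identical to the processed pseudogene Gm14539, which had 221 and 284 counts. With that row counted in, the ratio was 1.23 (1.06 to 1.44).

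Among the genes for the c subunit, the composition differed between libraries. Atp5g3 had 962 counts in ctrl and 1348 in APAP (1.26, 1.16 to 1.37), whereas Atp5g1 had 292 and 330 (1.02, 0.866 to 1.19) and Atp5g2 had 266 and 282 (0.954, 0.804 to 1.13). The intervals of Atp5g3 and Atp5g2 do not overlap. Atp5g3 therefore made up 63.3% of c subunit counts in ctrl (60.8 to 65.7, Wilson) and 68.8% in APAP (66.7 to 70.8), a share that does not depend on scaling. Atp5g1 went from 19.2% (17.3 to 21.3) to 16.8% (15.2 to 18.6) and Atp5g2 from 17.5% (15.7 to 19.5) to 14.4% (12.9 to 16.0), with intervals that overlap. Processed pseudogenes near-identical to the transcript ends of Atp5g1 (1 copy, 103 and 153 counts) and Atp5g2 (2 copies, 391 and 448 counts) took reads of their own. With these added, the share of Atp5g3 was 47.8% (45.6 to 49.9) in ctrl and 52.6% (50.7 to 54.6) in APAP, so that the level of the share rested on the copies and its difference between libraries was kept. The share of Atp5g2 was then 32.6% (30.6 to 34.7) and 28.5% (26.8 to 30.3), with intervals that no longer overlap. That of Atp5g1 was 19.6% (17.9 to 21.4) and 18.9% (17.4 to 20.4), with intervals that still do.

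Tissue-specific forms of other subunits were nearly all of the general kind. Several subunits of complex IV exist as a widely expressed form and a second form known from muscle, lung or testis. Cox4i1 made up 99.7% of Cox4i counts in ctrl (99.1 to 99.9) and 99.4% in APAP (98.9 to 99.7), and Cox7a2 made up 99.8% (99.1 to 99.97) and 99.7% (99.0 to 99.9) of its pair with Cox7a1. Cox8a took 99.5% (98.8 to 99.8) and 99.9% (99.5 to 99.98) of its pair with Cox8b. Cox6a1 took 98.7% (97.6 to 99.3) and 98.6% (97.7 to 99.1), beside 11 and 15 counts of the muscle form Cox6a2, which overlaps Itgad on the other strand. Cox7b had 623 counts in ctrl and 742 in APAP (1.07, 0.962 to 1.19). The minor form with the largest share was Cox6b2, known from testis, with 48 and 59 counts, so that Cox6b1 took 93.3% (91.3 to 94.9) and 93.5% (91.7 to 94.9). Ndufa4, now known as a subunit of complex IV despite its name, had 547 and 666 counts and 98.6% (97.2 to 99.3) and 99.0% (97.9 to 99.5) of its pair with Ndufa4l2. In none of these pairs did the intervals of the libraries separate.

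Genes of this pathway have many processed pseudogenes, and a read from a 3′ end may fit several places. Of the 93 members 19 had another annotated transcript with at least 98% identity over at least 75 of the last 300 bases, and 13 had an exon of another gene within the last 500 bases, 12 of them on the opposite strand. The 70 members with at least 20 counts and no such copy had a median ratio of 1.11 and a summed ratio of 1.08 (1.07 to 1.10), and the 19 with a copy 1.07 and 1.08 (1.04 to 1.12). Without copies and without overlapping exons 60 members remained, 46 of them above 1 and 17 with intervals above 1, with a median ratio of 1.10. Of all genes with at least 20 counts 53.2% were above 1 and 9.13% had intervals above 1. The median ratio was thus as large without the members that met these limits as over all members. Copies of lower identity or without annotation were not considered, and the part of shared reads in the ratios was not tested.

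For single genes the copies mattered more. The row Cox5b-ps (243 and 307 counts), which is itself a member since the table types it as protein-coding, is identical to Cox5b over the last 300 bases, and the 2 rows together had 643 counts in ctrl and 860 in APAP (1.20, 1.09 to 1.34). Cox7c had 281 and 341 counts, and its copies had 280 and 344 (Gm10012) and 220 and 300 (Gm12338), giving 1.14 (1.03 to 1.25) in sum beside 1.09 (0.930 to 1.28) for the gene alone. Atp5l had 210 and 250 counts against 571 and 720 in 8 copies (1.12, 1.02 to 1.23, beside 1.07, 0.888 to 1.29). For Ndufs5 the copy BC002163 had 84 and 109 counts, and the low ratio of the gene moved to 0.957 (0.793 to 1.16) in sum. Members with copies are therefore uncertain as single genes.

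**Figure D3:**
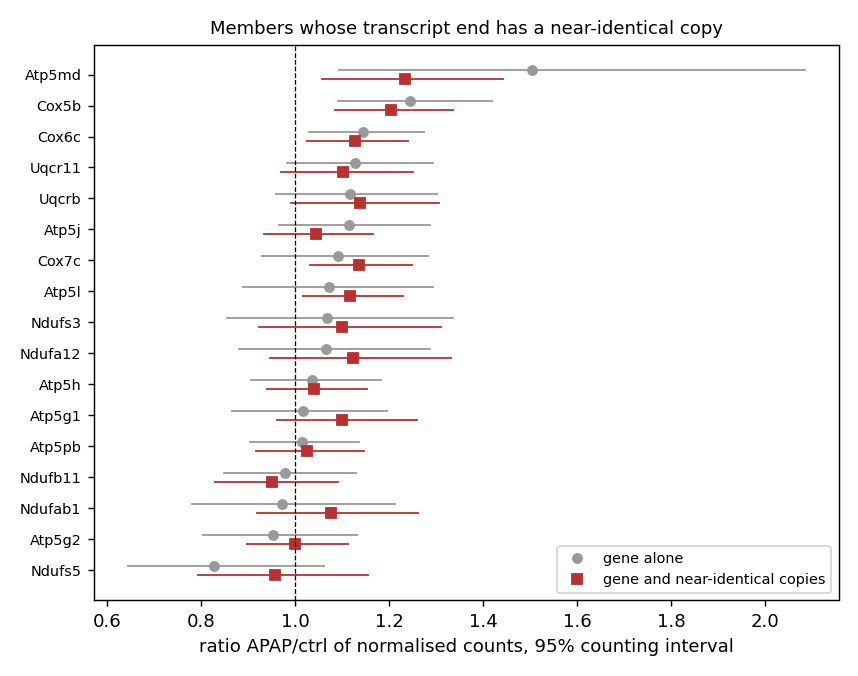
APAP/ctrl ratio of normalised counts (x axis, linear) with 95% counting intervals for the members that share their transcript end with a near-identical copy in the table, for the gene alone (grey circles) and with the counts of its copies added (red squares); Cox5b and Cox5b-ps share 1 line. Atp5md moves from 1.505 to 1.23 and Ndufs5 from 0.828 to 0.957, and the other pairs of points lie closer.

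Lists around the pathway were compared in the same way. Mitochondrially encoded subunits were far more abundant than the nuclear ones, with 27653 CPM in ctrl and 29871 CPM in APAP over 13 genes beside 12455 and 14190 CPM over the 93 members, and gave a smaller ratio (1.03, 1.02 to 1.04, median 1.02) whose interval does not reach that of the members. The leading genes, for subunits of complex IV, were mt-Co3 (11414 and 12964 counts, 1.02, 0.997 to 1.05) and mt-Co2 (10673 and 12269 counts, 1.03, 1.01 to 1.06). Of the 13 intervals 5 lay above 1 (38.5%, background 9.13%) and none below. Proteins that work with the ATP synthase but fall outside the name rule had the highest summed ratio of the lists (1.19, 1.14 to 1.25). Of the 8 genes on that list only 5 were above 1 (62.5%, background 53.2%) and 3 below. The interval lay above 1 for 4 of the 8 (50%, background 9.13%), namely for the carriers Slc25a3, Slc25a4 and Slc25a5 and for the inhibitor Atpif1. Slc25a3, the phosphate carrier, had 1241 counts in ctrl and 1545 in APAP (1.12, 1.04 to 1.21), and Slc25a5, an ADP/ATP carrier, had 891 and 1259 (1.27, 1.17 to 1.39).

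The other lists lay between 1.01 and 1.11. Of 12 electron carriers and dehydrogenases 8 were above 1 (sum 1.10, 1.02 to 1.17), led by Cyc1, the cytochrome c1 subunit of complex III whose name does not match the rule (368 and 428 counts, 1.05, 0.908 to 1.21), and Etfb of the electron transfer flavoprotein (249 and 295 counts, 1.07, 0.898 to 1.27). Citric acid cycle enzymes gave 1.05 (1.004 to 1.10), with 10 of 17 above 1, among them Mdh2 (711 and 908 counts, 1.15, 1.04 to 1.27) and Cs (365 and 416 counts, 1.03, 0.889 to 1.18). Mitochondrial ribosomal proteins gave 1.08 (1.05 to 1.11), with 50 of 75 above 1, led by Mrpl52 (491 and 630 counts, 1.15, 1.02 to 1.30) and Mrpl33 (279 and 365 counts, 1.18, 1.005 to 1.38), and import translocases gave 1.11 (1.06 to 1.16), with 18 of 21 above 1, led by Tomm7 (468 and 560 counts, 1.08, 0.951 to 1.22) and Tomm22 (304 and 376 counts, 1.11, 0.954 to 1.30). Intervals above 1 were held by 2 of the electron carriers, 4 of the cycle enzymes, 9 of the ribosomal proteins and 3 of the translocases, and an interval below 1 by 1 ribosomal protein. These are 16.7%, 23.5%, 12% and 14.3% of each list, beside 9.13% of all genes with at least 20 counts. Ratios above 1 made up 66.7%, 58.8%, 66.7% and 85.7% of the same lists, beside 53.2% of all these genes.

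Assembly factors outside the name rule and regulators stayed near the median of all genes. Of 31 assembly factors of complexes I to IV outside the name rule, 15 were above 1 (48.4%, background 53.2%) and 16 below. No interval excluded 1, and the sum gave 1.01 (0.957 to 1.06). Cox17, a copper chaperone for complex IV, had 357 and 435 counts (1.10, 0.951 to 1.26) and Cox14 had 252 and 253 (0.904, 0.756 to 1.08). Of 12 regulators of mitochondrial biogenesis 6 were above 1 and 6 below, again with no interval that excluded 1 (sum 1.02, 0.947 to 1.10). Yy1 had 296 and 325 counts (0.988, 0.842 to 1.16) and Tfam, which packages and transcribes mitochondrial DNA, had 200 and 203 (0.914, 0.748 to 1.12). No gene in any of these lists met the rule of a 2-fold difference.

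**Figure D4:**
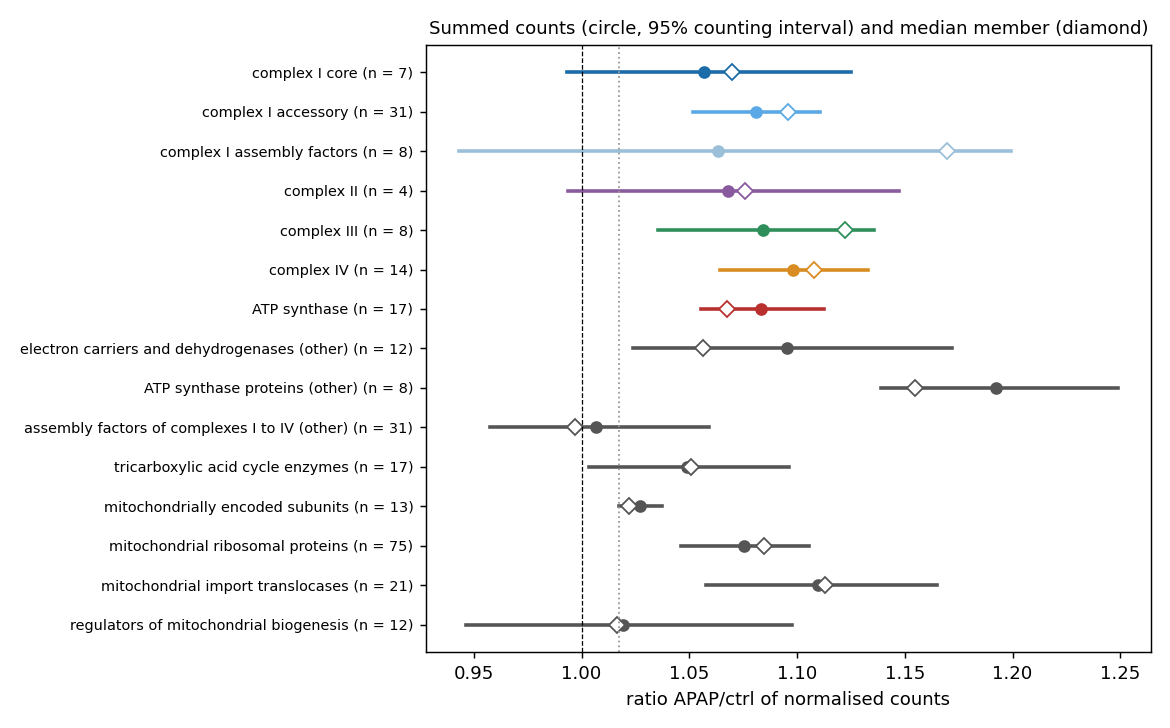
APAP/ctrl ratio of normalised counts (x axis, linear) for the 7 groups of members (coloured) and 8 related lists (grey), with n the genes with at least 20 counts. Circles are ratios of summed counts with 95% counting intervals, diamonds the ratio of the median gene, the dashed line marks 1 and the dotted line the median of all genes at 1.02; the groups of members lie between 1.06 and 1.10 in sum, assembly factors outside the rule at 1.01 and other ATP synthase proteins at 1.19.

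How large the ratio of the members was depended on the scaling between the libraries. Dividing by library totals raised their summed ratio to 1.14, and TMM factors lowered it to 1.06. The library totals hold the pancreatic transcripts, which took 6.45% of counts in ctrl and 1.97% in APAP, and totals without that list were almost the same as the size factors used here (log2 shift 0.00). The direction of every complex was the same under all of the scalings tried.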

How the data were processed

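Splenic RNA of each group was pooled by the authors and sequenced as 1 MACE library (MACE-kit v.2, globin RNA left in). Duplicate reads were removed by molecular identifiers, bases trimmed with cutadapt, poly(A) clipped, and reads mapped to mm10 and quantified with HTSeq. Not given in the sources used here were the aligner, annotation, versions and strand setting. Deposited by the authors were raw counts per gene, which were used throughout, a CPM column headed TPM (not divided by length), a signal equal to the count over the DESeq2 size factor, which is empty for 3049 rows, and 3 columns of means of both libraries, not used. Of the rows, 950 carry no symbol.

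Size factors came from DESeq2 1.42.0 (R 4.3.3), with TMM from edgeR 4.0.16 as an alternative. No count model was fitted, since each group has 1 library. Exact (Clopper-Pearson) and Wilson 95% intervals were computed with scipy 1.17.1. The exact intervals of the ratios were tried only on simulated counts that held counting error and no spread between pools. Ratios needed 20 counts over both libraries. Copies were sought with blastn 2.17.0 in GENCODE M21, which held all 93 members, and promoters were taken from RefSeq. No sequence of chromosome 18 is shown.

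The members and lists were chosen with earlier results of these data known. Named were, per complex, the 3 members with the most counts and the highest and lowest ratio, all isoforms of fixed families, members under 20 counts, members past the 2-fold rule, and 2 genes per related list. The values of 1 member that the rule names are not reported here, though it stays in all counts and sums. Members with an interval excluding 1, catalytic or partner subunits of those, and members with copies or overlaps were named after their values were seen.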

Additional observations from a re-analysis of the deposited data

How the results depend on the processing

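No paired analysis was possible because ctrl and APAP are 1 library each. Scaling moved the sizes. Scaled by library totals, and by these totals after haemoglobin and immunoglobulin genes were left out, the summed ratio was 1.14 and 1.15 for all members, 1.14 and 1.15 for the accessory genes of complex I, 1.14 and 1.15 for complex III, 1.15 and 1.17 for complex IV, and 1.14 and 1.15 for the ATP synthase. The median log2 ratio was then 0.21 and 0.22 for all members (0.14 with DESeq2 factors), 0.20 and 0.22 for the accessory genes and 0.17 and 0.18 for the ATP synthase. TMM and upper quartile scaling gave 1.06 and 1.06 for all members. These scalings shift every gene alike, by 0.07, 0.09, -0.03 and -0.03 on the log2 scale, the median of all genes included. Members with an interval above 1 numbered 39 and 41 with the totals and 15 and 15 with TMM and upper quartile scaling instead of 22. Members with an interval below 1 numbered 0 and 0 with the totals and 2 and 2 with TMM and upper quartile scaling instead of 1. The shares of all genes with such intervals (9.13% above 1 and 6.57% below 1) were computed with DESeq2 factors only. They shift with the scaling too, so the counts under the other scalings have no background beside them. At a ratio of at least 1.5, 1 member was higher (Atp5md), and the share of all genes at this ratio was not computed. Under a ratio beyond 3 with counts of 0 set to 1, 1 was lower (Cox8b, on 4 counts and 1, background 3.74%). Other minimums of counts, leaving out the most abundant member, adding -ps rows or moving Ndufa4 to complex IV changed no sum or median by more than its counting error and no count of members by over 1.5 times, nor did leaving out or adding near-identical copies, which was chosen after seeing the data. Intervals cover counting error only, so that a difference of the size seen here may also arise between pools of the same treatment. Its size between pools was not measured.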
